A study of Homo sapiens with 4 samples.

Results

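Receptor tyrosine kinases other than the FGF receptors were examined in TPC1 cells, an established line from a human papillary thyroid carcinoma. The set was given as 40 gene symbols, with the FGF receptors and RET left out, and 27 of them were found by symbol among the 13165 genes of the deposited table. The other 13, PDGFRA, KIT, KDR, FLT1, EPHA1, EPHA3, EPHA7, EPHB3, EPHB6, NTRK2, CSF1R, LTK and ALK, were not analysed here. The groups were TPC1-Vector, cells with the empty vector, and TPC1-C1orf106, cells with a vector expressing C1orf106, the older symbol of INAVA. Per the study's methods the retroviral vector pQCXIP carried C1orf106, whereas the labels speak of transfection. Stable lines of each group were obtained over 2 weeks in puromycin at 0.5 μg/mL, and whether a line was 1 clone or a pool is not stated for these groups in the sources used here. From 2 libraries per group the authors deposited 1 FPKM value per gene and group, a fragment count scaled by transcript length and library size. The values therefore have no SD and no replicate check, no test between the groups could be made, and the number of reads behind them is unknown.

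A receptor tyrosine kinase spans the plasma membrane, binds a ligand outside the cell and, as a dimer, phosphorylates tyrosines that recruit adaptor proteins such as GRB2 and SHC1 to start the RAS and PI3K pathways. Some members, among them ERBB3, PTK7, RYK and ROR1, have little or no kinase activity of their own and act with partner receptors. In papillary thyroid cancer, rearranged receptor kinases, above all RET, are known drivers, and MET is known to be abundant in these tumours.

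The label of the overexpressing group was checked first. C1orf106 stood at 7.96 FPKM with the empty vector and at 123 FPKM in TPC1-C1orf106. Fold changes are given as differences of log2(FPKM + 0.5), TPC1-C1orf106 minus TPC1-Vector, a scale that shrinks differences between low values, and that of C1orf106 was 3.86. Values given in pairs are TPC1-Vector first and TPC1-C1orf106 second. Of 8 thyroid markers, 3 were analysed, with PAX8, a thyroid transcription factor, at 60.1 and 55.7 FPKM, FOXE1 at 5.26 and 5.89 FPKM and HHEX at 8.33 and 10.0 FPKM. Thyroglobulin (TG), TSHR, NKX2-1 and SLC5A5 were among those not analysed here. Of 6 epithelial markers, KRT18, KRT8 and KRT7 were analysed, KRT18 being higher (140 and 212 FPKM) and KRT8 lower (23.4 and 10.5 FPKM) in TPC1-C1orf106.

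The promoters of 4 members are shown because their members mark the ends of the range described below. AXL and EPHA2 had the highest levels, DDR2 was the member at least 1.5-fold higher after the filter, and TIE1 had the largest ratio. Each window holds the 250 bases upstream of a RefSeq gene start (GRCh38.p14), read 5′ to 3′ on the strand of the gene. The windows are chr19:41218973-41219222 (forward strand), chr1:16156070-16156319 (reverse), chr1:162632214-162632463 (forward) and chr1:43300732-43300981 (forward). Capitals mark matches, on either strand, to 4 motifs. These are the GC box, bound by SP1 and written GGGCGG, then the site of TEAD factors, written GGAATG, the site of AP-1, with the letters TGANTCA, and finally the TATA box, with the letters TATAAA. The matches in these windows do not overlap.

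AXL: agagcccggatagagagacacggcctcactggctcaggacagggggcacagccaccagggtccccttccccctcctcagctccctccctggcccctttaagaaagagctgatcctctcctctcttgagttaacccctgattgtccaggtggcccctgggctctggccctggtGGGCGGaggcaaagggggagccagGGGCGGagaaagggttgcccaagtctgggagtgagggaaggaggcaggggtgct
EPHA2: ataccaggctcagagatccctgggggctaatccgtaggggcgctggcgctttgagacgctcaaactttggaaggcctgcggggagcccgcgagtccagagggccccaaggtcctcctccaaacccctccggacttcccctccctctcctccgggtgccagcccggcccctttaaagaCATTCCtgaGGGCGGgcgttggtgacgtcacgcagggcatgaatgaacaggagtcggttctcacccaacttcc
DDR2: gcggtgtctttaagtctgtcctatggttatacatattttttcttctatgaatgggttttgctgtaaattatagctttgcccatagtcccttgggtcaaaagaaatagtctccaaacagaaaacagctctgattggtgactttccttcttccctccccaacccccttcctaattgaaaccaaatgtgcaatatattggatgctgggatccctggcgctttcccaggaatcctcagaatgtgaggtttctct
TIE1: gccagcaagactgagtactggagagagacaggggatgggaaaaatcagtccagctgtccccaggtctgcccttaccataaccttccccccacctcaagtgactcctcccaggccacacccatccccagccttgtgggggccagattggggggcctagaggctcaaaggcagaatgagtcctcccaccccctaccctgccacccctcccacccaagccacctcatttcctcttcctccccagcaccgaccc

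The AXL window held 2 GC boxes and the EPHA2 window 1 GC box and 1 TEAD site, while the windows of DDR2 and TIE1 held no match. CpG dinucleotides numbered 4 for AXL, 15 for EPHA2, 2 for DDR2 and 1 for TIE1, against a median of 11 over the 35114 windows of the RefSeq table. A window within 500 bases of the deposited gene end was found for 21 members. Of these 16 held a GC box, a motif found in 42.6% of all windows, 2 (ERBB2 and TYRO3) held an AP-1 match (6.57% of all windows), 1 held a TEAD site (11.9%) and 0 held a TATA box (10.7%). The 8 members at 10 FPKM or more in both groups had 63.2% to 80.0% GC (median 70.0%), and the 6 matched members under 1 FPKM in both groups had 42.4% to 78.4% (median 66.2%). The ranges overlapped, and the median over all windows was 58%. CpG counts had medians of 24 (from 4 to 39) in the strong and 12.5 (from 1 to 32) in the weak members. With so few windows it cannot be said whether GC or CpG content separates strong from weak members.

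The receptors differed in level far more than the groups did. AXL, the receptor of GAS6, was at 157 and 140 FPKM. EPHA2, a receptor of A-type ephrins, was at 83.2 and 88.7 FPKM, and MET, the receptor of hepatocyte growth factor, at 61.6 and 54.1 FPKM. These 3 held 64.3% of the summed FPKM of the 27 members in TPC1-Vector and 64.2% in TPC1-C1orf106. EGFR followed at 39.2 and 31.6 FPKM. The Wnt-binding RYK was next at 29.8 and 31.8 FPKM, and PTK7, which acts in planar cell polarity, at 23.6 and 24.9 FPKM. ERBB2, the dimer partner of the EGF receptor family, was at 12.2 and 11.1 FPKM and TYRO3 at 11.7 and 10.6 FPKM. In rank by mean FPKM among all genes of the table, AXL stood at percentile 96.3, EPHA2 at 93.0, MET at 88.9 and EGFR at 81.0. No spread is known, so it cannot be said which neighbours in this order differ.

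**Figure D1:**
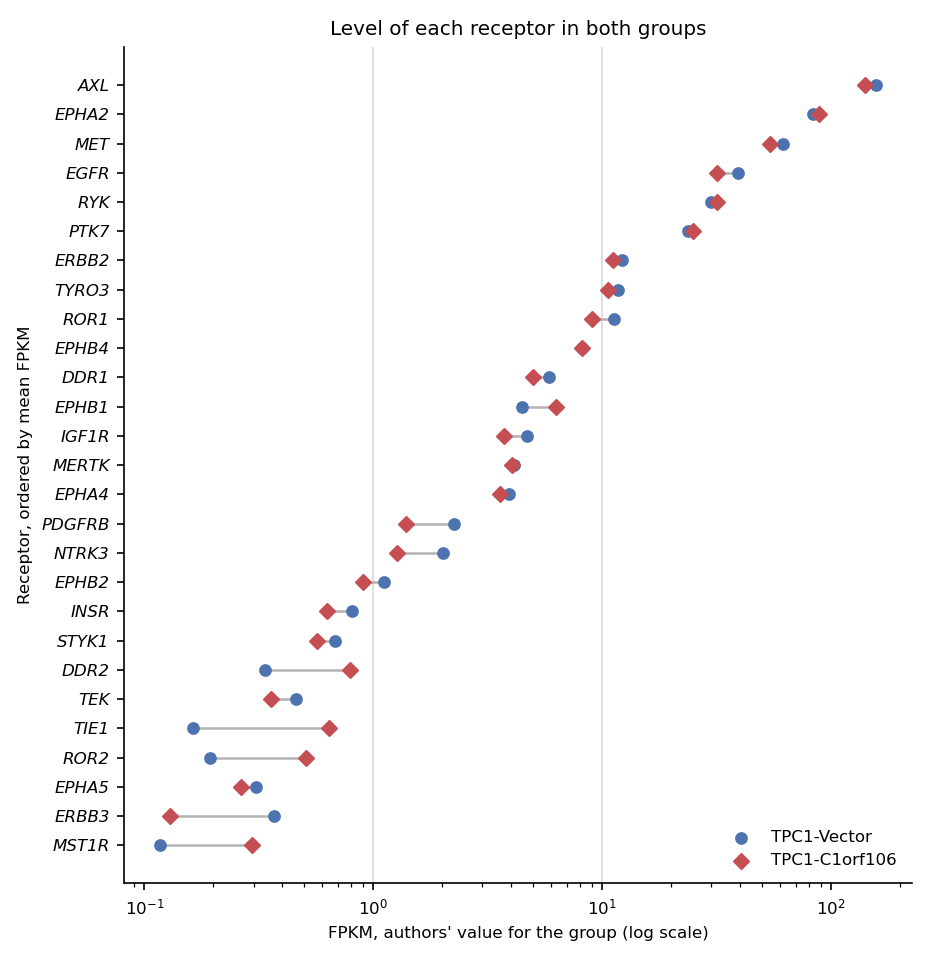
FPKM of the 27 receptors in TPC1-Vector (circles) and TPC1-C1orf106 (diamonds) on a log axis, 1 authors' value per group, ordered by mean level. AXL, at 157 and 140 FPKM, lies at the top, the symbols of the strong receptors almost coincide, and those of DDR2, TIE1, ROR2, ERBB3 and MST1R lie far apart.

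The 8 members at 10 FPKM or more in both groups stayed within narrow limits, with ratios of TPC1-C1orf106 to TPC1-Vector from 0.807 (EGFR) to 1.07 (RYK). EPHA2, RYK and PTK7 were above 1 and AXL, MET, EGFR, ERBB2 and TYRO3 below. No member of this level had a 2-fold ratio in either direction, as did 0.219% of the 6381 genes of the table at this level. The summed FPKM of the 27 members was 470 in TPC1-Vector and 441 in TPC1-C1orf106, a difference of -29.2 FPKM. The difference of AXL was -17.0 FPKM, that of EGFR -7.55 FPKM and that of MET -7.53 FPKM, while EPHA2 differed by 5.51 FPKM in the other direction.

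Genes whose mean FPKM of both groups reached 0.5 were kept, which left 21 of the 27 members and 12305 genes of the table. Of the members, 1 (DDR2) was at least 1.5-fold higher in TPC1-C1orf106 and 0 were at least 1.5-fold lower, where 2.24% of all genes kept were higher and 1.45% lower by this rule. With so few genes past 1.5-fold in the table, 1 of 21 members is not set apart from the background, and DDR2 is a gene that the study picked from these libraries. Below 0 were 15 of the 21 members (71.4%), against 49.2% of all genes kept, and 16 with median-of-ratios or quantile scaling. The median log2 fold change of the members was -0.14 and that of all genes kept 0.0033. Of the 21, 17 lay between the percentiles 5 and 95 of all genes kept (-0.38 and 0.40), the other 4 being DDR2, EPHB1, NTRK3 and PDGFRB.

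**Figure D2:**
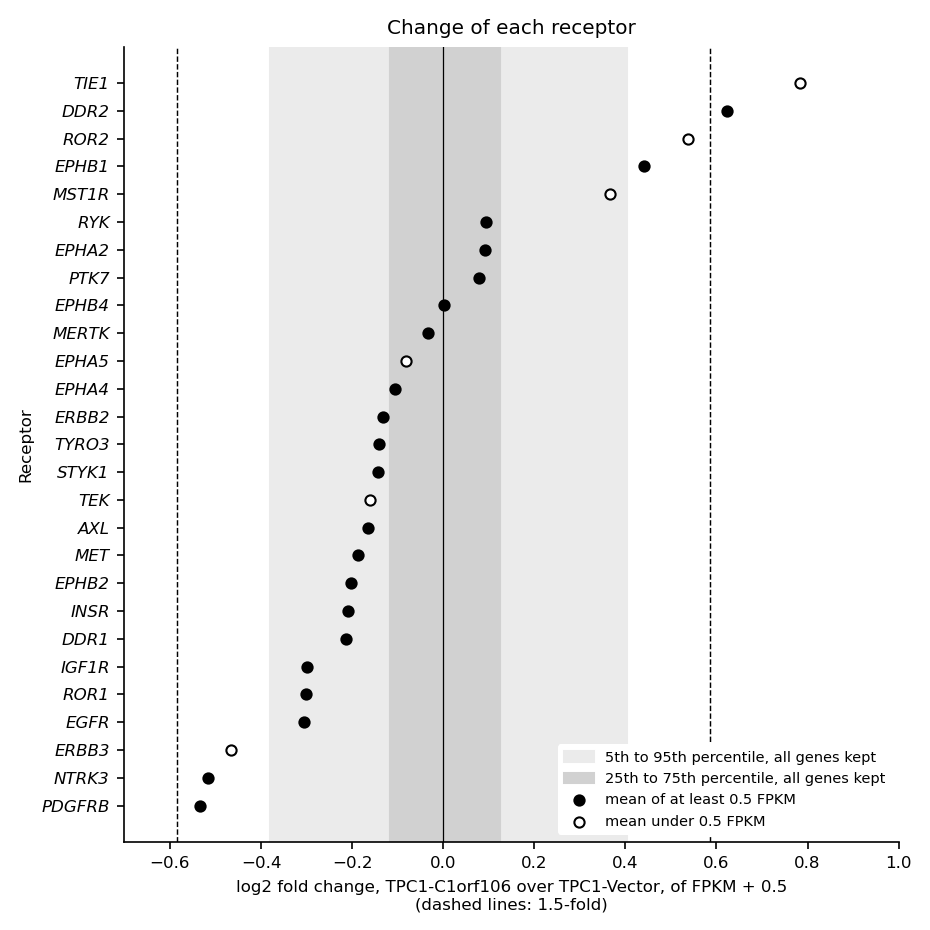
Log2 fold change of FPKM + 0.5, TPC1-C1orf106 over TPC1-Vector, for the 27 receptors, with filled symbols for mean levels from 0.5 FPKM, open symbols for lower means, bands for the percentiles of all genes kept and dashed lines at 1.5-fold. DDR2 (0.62) is the filled symbol past a line, TIE1 (0.78) the open one, and PDGFRB (-0.53) and NTRK3 (-0.52) stop short of the lower line.

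In the EGF receptor family, EGFR had a log2 fold change of -0.30 (percentile 7.34 of all genes kept) and ERBB2 of -0.13. The FPKM ratio of EGFR to ERBB2 was 3.20 in TPC1-Vector and 2.84 in TPC1-C1orf106. ERBB3, the neuregulin receptor with an impaired kinase, was weak at 0.370 and 0.130 FPKM. EGFR and ERBB2, which were kept, were thus lower in TPC1-C1orf106. ERBB3 was under the filter, and a gene this weak enters the deposited table through the group where it is higher. Of 10 listed ligands of the EGF receptor family 9 were analysed and 7 kept, of which 6 were below 0, against 49.2% of all genes kept. BTC and NRG4, under the filter, were above 0 (0.22 and 0.17). EREG, a ligand of EGFR and ERBB4, was at 2.25 and 1.26 FPKM (-0.64) and EGF itself at 0.763 and 0.283 FPKM (-0.69), which passed the filter only through TPC1-Vector. HBEGF, the heparin-binding ligand of EGFR, went the other way with 4.26 and 6.66 FPKM (0.59), just past 1.5-fold and no longer past it with median-of-ratios scaling. The most abundant, TGFA, was at 22.7 and 20.4 FPKM, and NRG1, which binds ERBB3, at 15.0 and 12.2 FPKM.

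The TAM receptors, a family with the ligands GAS6 and protein S that takes part in the clearance of dying cells, were kept in all 3 cases and were all below 0. AXL had a log2 fold change of -0.16, TYRO3 of -0.14 and MERTK, at 4.14 and 4.03 FPKM, of -0.033. AXL was 13.4 times TYRO3 in TPC1-Vector and 13.2 times in TPC1-C1orf106. It was 38.0 and 34.8 times MERTK, and no spread is known for these ratios. The ligands of the family, GAS6 (20.3 and 18.9 FPKM) and PROS1 (protein S, 4.09 and 3.41 FPKM), were within 1.5-fold. MET had a log2 fold change of -0.19. Its relative MST1R, the receptor of macrophage-stimulating protein, was at 0.117 and 0.296 FPKM, the lowest mean among the members.

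The insulin receptor family was represented by IGF1R at 4.69 and 3.72 FPKM (log2 fold change -0.30) and INSR at 0.806 and 0.630 FPKM (-0.21). Their ligands INS, IGF1 and IGF2 were not analysed here. Of the PDGF receptors, PDGFRB, known from pericytes and fibroblasts, was at 2.24 and 1.39 FPKM, the lowest log2 fold change among kept members (-0.53, percentile 1.86). NTRK3, the neurotrophin-3 receptor, was close to it with 2.02 and 1.27 FPKM (-0.52, percentile 2.11). The ratio of their FPKM values, without a pseudocount, was 0.621 for PDGFRB and 0.625 for NTRK3, past 1.5-fold. Of 6 fibroblast and mural markers 3 were analysed, with summed levels of 3.18 and 2.92 FPKM. Of these RGS5 was at 1.86 and 2.12 FPKM and COL1A1 at 0.937 and 0.571 FPKM, and their part in the value of PDGFRB was not tested. In bulk RNA of this cell line, fewer cells with PDGFRB RNA and less of it per cell cannot be told apart.

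Among the ligands of these and the vascular receptors, 10 of 11 were analysed and 9 kept. KITLG, the ligand of KIT, was at 11.2 and 17.3 FPKM (log2 fold change 0.60) and was the one past 1.5-fold. PDGFC was the most abundant with 39.5 and 36.5 FPKM, followed by CSF1 with 23.1 and 21.6 FPKM.

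The receptors bound by collagen and by Wnt proteins held members of both directions. DDR2, a receptor of fibrillar collagen, lies on chromosome 1 (162632438 to 162780457, GRCh38) and was at 0.337 and 0.790 FPKM. Its log2 fold change was 0.62, or 1.23 without the pseudocount, and it passed the filter only through its level in TPC1-C1orf106. DDR1, the other collagen receptor, was at 5.84 and 4.97 FPKM (-0.21), so that the ratio of DDR1 to DDR2 went from 17.3 to 6.29. DDR1 is placed in the deposited table on an alternate contig of the MHC region of chromosome 6, one of 433 genes so placed, and reads could be split between such copies. RYK and PTK7 were above 0 (0.094 and 0.078), and ROR1 was at 11.2 and 9.01 FPKM (-0.30). ROR2, a WNT5A receptor, was at 0.194 and 0.507 FPKM, under the filter. The study chose both DDR2 and ROR2 for display from these libraries, so their direction is no independent evidence. The ligands WNT5A (7.32 and 9.17 FPKM) and WNT5B (48.4 and 64.1 FPKM) were within 1.5-fold.

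Of the 11 Eph receptors in the set 6 were analysed. Apart from EPHA2 (0.092), EPHB4 was level in the groups at 8.16 and 8.17 FPKM and EPHA4 was at 3.91 and 3.59 FPKM. EPHB1 was at 4.48 and 6.26 FPKM, with a log2 fold change of 0.44 (percentile 95.8 of all genes kept), under 1.5-fold. EPHB2 was at 1.11 and 0.902 FPKM and EPHA5 at 0.308 and 0.263 FPKM. EPHA5 shares its deposited position with the antisense entry EPHA5-AS1, and reads of these could not be told apart unless strand was used, which the sources used here do not state. Of 8 ephrins, the membrane-bound ligands, 7 were analysed and 6 kept. EFNB1, a ligand of Eph B receptors, was at 2.03 and 3.81 FPKM (log2 fold change 0.77) and was the one past 1.5-fold, while EFNB2 was at 16.6 and 14.3 FPKM and EFNA4 at 13.9 and 14.4 FPKM.

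The TIE receptors of endothelium were weak in both groups. TEK, the angiopoietin receptor, was at 0.460 and 0.359 FPKM, and its partner TIE1 (chromosome 1, 43300895 to 43323110, GRCh38) at 0.164 and 0.643 FPKM. By these values TIE1 was under TEK in TPC1-Vector and above it in TPC1-C1orf106. Both were under the filter and no spread is known, so it cannot be said whether their order differed. Of 6 endothelial markers 1 was analysed, ERG, which like TIE1 had its higher value in TPC1-C1orf106 (0.348 and 0.714 FPKM), and its part in the value of TIE1 was not tested. ERG, too, is a gene the study picked from these libraries, and it passed the filter only through TPC1-C1orf106. PECAM1, CDH5, VWF, CLDN5 and ESAM were not analysed here. Of 6 macrophage and blood markers 3 were analysed, CD68 at 5.76 and 8.67 FPKM, LYZ at 0.891 and 0.940 FPKM and CD14 at 0.295 and 0.236 FPKM. STYK1, a receptor-like kinase with a short extracellular part, was at 0.681 and 0.569 FPKM.

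The large ratios all belonged to weak members. Of the 9 members under 1 FPKM in both groups, 5 had a ratio of at least 2-fold, with TIE1 at 3.92, ROR2 at 2.62, MST1R at 2.52 and DDR2 at 2.34 higher and ERBB3 at 0.350 lower in TPC1-C1orf106. The others were INSR, STYK1, TEK and EPHA5, from 0.780 to 0.855. Of all 1564 genes under 1 FPKM in both groups, 15.0% had a ratio of at least 2-fold. The table holds no gene whose higher group is under 0.278 FPKM, so a weak gene enters it through the group where it is higher. None of the 17 members at 1 FPKM or more in both groups had a 2-fold ratio. Counting error could not be estimated for these values.

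Beyond the receptors, the shared signalling genes and ligands were counted by the same rule. By it 2.24% of all genes kept were at least 1.5-fold higher and 1.45% lower. Counts of 0 or 1 in lists this short are not set apart from these shares. Of 19 receptor adaptors kept, 0 were past 1.5-fold, with a median log2 fold change of 0.0071, and SHC1 was at 122 and 127 FPKM and the phosphatase PTPN11 at 66.8 and 69.4 FPKM. Of 20 genes that restrain receptors, 1 was past 1.5-fold. This was SOCS2, a suppressor of cytokine signalling, with 0.293 and 0.825 FPKM, which passed the filter only through TPC1-C1orf106. ERRFI1, an inhibitor of EGFR, was at 34.6 and 46.3 FPKM (0.41) and SH3KBP1, which links receptors to endocytosis, at 43.7 and 38.8 FPKM. Of 13 co-receptors and sheddases 0 were past 1.5-fold, and BSG was at 346 and 394 FPKM and CD151 at 186 and 228 FPKM. The 6 ligand lists together had 28 genes kept, 3 higher and 2 lower by 1.5-fold, with a median of -0.084. Of these 28 genes, 13 were above 0 and 15 below. Of the 12 ligands of other receptors 5 were analysed and 4 kept, all above 0, with midkine (MDK) at 55.7 and 63.7 FPKM. Outside the set, FGFR4 was at 23.8 and 12.7 FPKM (-0.88), FGFR1 at 16.1 and 16.1 FPKM and RET at 8.77 and 10.2 FPKM.

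**Figure D3:**
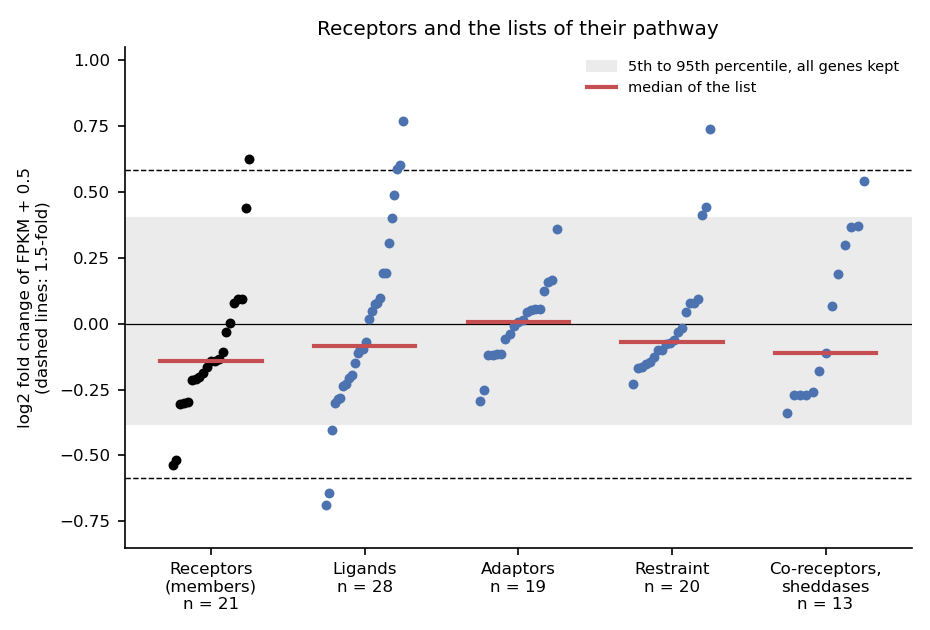
Log2 fold change of FPKM + 0.5 for the kept genes of the receptor set (n = 21), the ligand lists (n = 28), adaptors (n = 19), restraining genes (n = 20) and co-receptors with sheddases (n = 13), with red bars at the medians, a band for the percentiles 5 to 95 of all genes kept and dashed lines at 1.5-fold. The medians run from -0.14 for the receptors to 0.0071 for the adaptors, and 1 receptor, 5 ligands and 1 restraining gene lie past a dashed line.

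To see whether a member differed from the genes around it, each member was set beside the other genes within 1 Mb whose mean reached 1 FPKM. For 25 members such genes were found, and the median log2 fold change of the neighbours was between -0.1 and 0.1 for 20 of them. Within 3 Mb all 27 members had neighbours and all 27 medians lay in this range. DDR2 (0.62) had 11 neighbours with a median of -0.045, and TIE1 (0.78) had 26 with a median of 0.028. PDGFRB (-0.53) had 19 with a median of 0.067, and NTRK3 (-0.52) had 6 with a median of 0.16. These 4 are described for their large values, so a distance from a median near 0 says nothing further, and DDR2 and TIE1 are subject to the limits on weak genes given above. EPHB1 (0.44) had 4 neighbours, all higher, with a median of 0.15, which was 0.0071 over 21 genes within 3 Mb. RYK (0.094) had 8, of which 7 were higher, with a median of 0.14, which was 0.015 over 24 genes within 3 Mb. Both genes lie close together on chromosome 3, so their windows share genes and each counts among the neighbours of the other. The highest median, 0.30 over 6 genes, lay around STYK1, which was itself at -0.14, and was 0.090 over 27 genes within 3 Mb. The median around NTRK3 was 0.042 over 34 genes within 3 Mb.

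**Figure D4:**
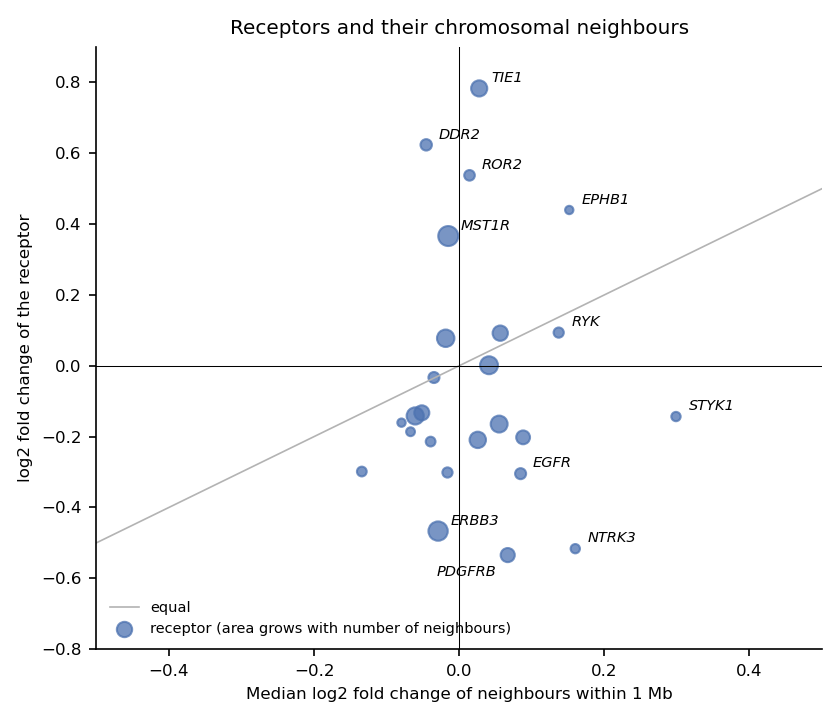
Log2 fold change of each receptor (y axis) against the median of its neighbours within 1 Mb (x axis), both of FPKM + 0.5, with symbol area growing with the number of neighbours and a grey line of equality. Most neighbourhoods lie near 0 on the x axis, and TIE1, DDR2 and ROR2 above and PDGFRB and NTRK3 below are far from the line.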

How the data were processed

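RNA of TPC1-Vector and TPC1-C1orf106 was sequenced, with 2 libraries per group. The authors deposited 1 FPKM value per gene and group, for which the submitters' processing notes name CASAVA, Cufflinks 2.1.1, Cuffdiff and hg38. The aligner, annotation and use of strand are not given in the sources used here. The authors' own log2 ratio, direction, p-value and q-value columns were not used. The depth per library is unknown.

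Here genes with a mean FPKM of both groups from 0.5 upward were retained, log2(FPKM + 0.5) was differenced, and a change of at least 1.5-fold was counted. With 1 value per group no test was possible. The members and lists were chosen with earlier results of these data known. Named were all members found, and of each list the genes past 1.5-fold and the 2 most abundant. KRT7, FOXE1, CD14, WNT5A and RET were named in addition after their values were seen. BTC and NRG4 were also named outside this rule. Gene positions were matched to GENCODE release 29, 1 was added to the deposited starts, and promoters came from RefSeq. Python 3.11.15, pandas 2.3.3, numpy 2.4.6 and matplotlib 3.10.9 were used, and the script was tested on simulated data. The genes changed in that simulation were all above 1 FPKM, so calls of weaker genes were not covered. Alternatives covered the pseudocount, filter, scaling and fold.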

Additional observations from a re-analysis of the deposited data

How the results depend on the processing

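No paired analysis was possible because each group has a single deposited value, and for the same reason no library could be left out and no fit with the replicate number was run. The median of the members ranged from -0.18 to -0.14 over the alternatives run, and 20 of 21 kept members had 1 direction in every alternative that gave them a value, EPHB4 (at 0.0014) being the exception. A change of pseudocount or filter, or leaving out alternate contigs, cannot change a direction. Only median-of-ratios and quantile scaling could have done so, so the constancy of direction was mostly fixed in advance. DDR2, INSR and STYK1 had no value at a mean of at least 1 FPKM, nor DDR1 without alternate contigs. The number of members at least 1.5-fold higher was 1 as reported. It was 0 with a pseudocount of 1, where 1.63% of all genes kept were higher. With the filter raised to 1 FPKM it was 0 (1.95%), and with no filter 2, DDR2 and TIE1 (2.51%). TIE1, at 0.164 and 0.643 FPKM, is subject to the limits on weak genes given above. The number higher was 0 at 2-fold and 2 at a log2 change of 0.32. The number at least 1.5-fold lower, 0 as reported, was 2 (NTRK3 and PDGFRB) with a pseudocount of 0.1 (2.35% of all genes kept), 2 with no pseudocount (2.67%, added after the data were seen) and 2 at a log2 change of 0.32. Of all genes kept, 0.610% were higher and 0.244% lower at 2-fold, and 7.69% and 6.74% at a log2 change of 0.32. Of the ligand, adaptor, restraint and co-receptor genes, 4 higher and 2 lower, the numbers were 1 and 0 with a pseudocount of 1, 0 and 0 at 2-fold and 12 and 4 at a log2 change of 0.32, and 3 and 1 at a mean of at least 1 FPKM, where SOCS2 and EGF fell out. They were 5 and 2, with PDGFD added, with a pseudocount of 0.1 or none, and 3 and 2, without HBEGF, with median-of-ratios scaling. The shares of all genes kept, higher and lower, were 1.63% and 1.01% with a pseudocount of 1. They were 1.95% and 1.33% with the filter raised to 1 FPKM. With a pseudocount of 0.1 they were 3.06% and 2.35%, with none 3.34% and 2.67%, and with median-of-ratios scaling 2.22% and 1.48%. The pseudocount shrinks the change of weak genes by construction. Leaving out genes on alternate contigs, also added later, changed none of these counts of genes past the fold. With 3 Mb in place of 1 Mb the median over all neighbourhoods was 0.016 against 0.014, but those around EPHB1, RYK, STYK1 and NTRK3 were nearer 0. Unknown depth leaves the counting error of the 9 members under 1 FPKM unstated.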
